A study of Bos taurus with 8 samples.

Results

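Elastic fibre and microfibril genes are those for elastin, for the thin microfibrils on which elastin is laid down, for the fibulins that join both, and for the lysyl oxidases that crosslink the finished fibre. The list held 10 genes (ELN, FBN1, MFAP2, MFAP5, FBLN1, FBLN2, FBLN5, EFEMP1, LOX and LOXL1), and a gene was followed where a probe on the array carried an accession that a gene table pairs with its symbol. A probe was found for 6 of the 10, ELN, MFAP2, MFAP5, FBLN5, EFEMP1 and LOXL1, with 1 probe each among 21475. All 6 passed the filter on dim probes and were tested among 17631 probes. FBN1, FBLN1, FBLN2 and LOX are not analysed here.

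An elastic fibre is built outside the cell. Cells first secrete fibrillin, which assembles with microfibril-associated glycoproteins into a scaffold, and tropoelastin, the soluble form of elastin, is then brought to the scaffold by fibulins, crosslinked by lysyl oxidases and made insoluble. In skeletal muscle such fibres lie in the connective tissue around fibres and fascicles and in vessel walls, and cultured fibroblasts and smooth muscle cells are the usual sources of elastin.

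RNA came from primary cultures of muscle cells from the semitendinosus muscle of bulls of 3 breeds, all untreated and frozen while proliferating at 80% confluence. The bulls were Limousin (LIM) or Hereford (HER), kept for beef, or Holstein-Friesian (HF), kept for milk. Each of 8 two-colour arrays carried RNA of a beef breed culture beside RNA of an HF culture, 4 arrays with LIM in Cy5 and HF in Cy3 and 4 with HER in Cy3 and HF in Cy5, numbered as biological replicates. Satellite cells had been enriched by preplating and not purified, so the cultures may hold other cells of muscle. The question was which genes differed between beef and dairy cells. The sources used here do not tell which HF bull lay on which array.

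Values are log2 ratios of beef breed over HF, from the ratio made by the scanner software, so that 1 stands for a doubling. Each comparison lay on 1 slide with 1 dye orientation, so within a comparison breed, slide and dye cannot be told apart. Between comparisons the dyes were swapped, so that a dye effect of equal size cancels in the mean of LIM and HER. Both comparisons share the HF side and are not independent of each other. The fit took the arrays as independent, so its p-values, also for the mean of LIM and HER, make no allowance for this. A gene was called where its unadjusted p in limma did not exceed 0.05 and its fold change reached 1.3. These are the thresholds of the methods, and the Benjamini-Hochberg adjusted p over all probes is given beside it. Many probes were called on these arrays. In LIM versus HF 41.6% of the tested probes were called (34.3% with the adjusted p), in HER versus HF 34.8% (24.4%) and in the mean of LIM and HER 41.0% (38.1%). Probes called higher in the beef breed made up 20.3%, 15.0% and 19.3% of those tested, in that order. Of the probes called in HER, 43.0% were higher, and this share was 55.2% after normexp background correction with outlying backgrounds replaced.

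Of the 6 genes measured, ELN and MFAP5 rose in both beef breeds on every array, FBLN5 rose in HER, and LOXL1 was called in neither. The counts were 2 of 6 in LIM and 3 of 6 in HER, with 0 lower in either and the same 2 and 3 genes under the adjusted p. ELN and MFAP5 were called higher in both, as were 10.8% of all probes, and they were above 0 on all 8 arrays, as were 11.7% of all probes. In the mean of LIM and HER 5 of 6 were called, all but LOXL1, and 3 of them (ELN, MFAP5 and FBLN5) with the adjusted p. The median log2 ratio of the 6 was 0.87 in LIM and 0.89 in HER, beside −0.01 and −0.06 over all probes tested. ELN is among the 6 through the study's gene table, which lists genes already called in both breeds on these arrays. Its call was thus known in advance, and the counts and medians of the 6 include it. In cultures that may hold several cell types, fewer cells of a type and less RNA per cell cannot be told apart.

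**Figure D1:**
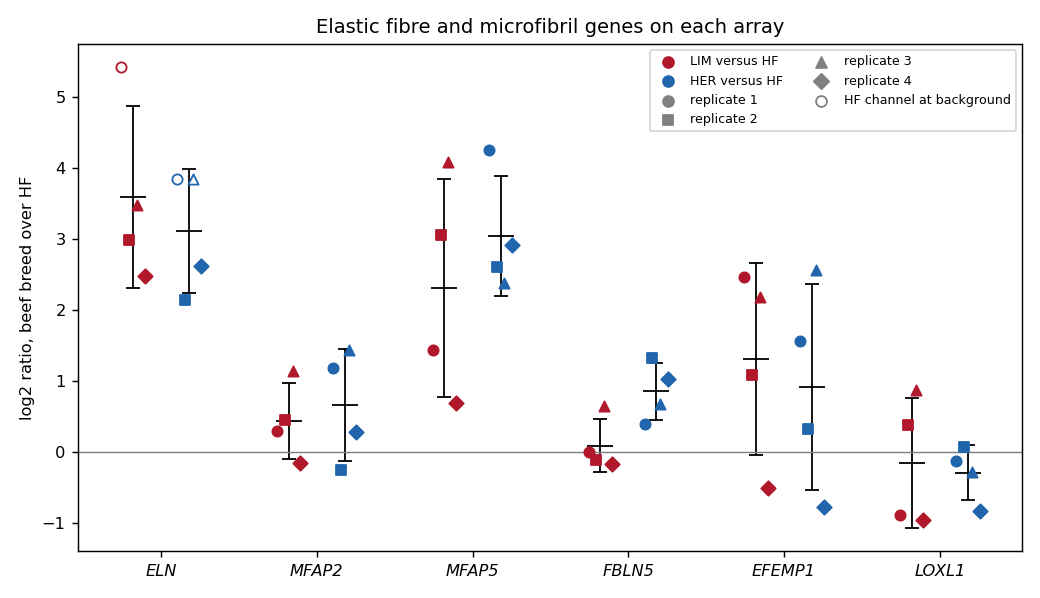
The vertical axis gives the log2 ratio of beef breed over HF for the 6 genes, with 1 point an array (red for LIM, blue for HER, shapes for replicates), a bar for the mean and whiskers for the SD of 4 arrays, and open points where HF lay at background. ELN and MFAP5 lie above 0 on all 8 arrays, FBLN5 lies above 0 on all 4 HER arrays, and LOXL1 lies on both sides of 0.

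ELN, which encodes tropoelastin and so the elastic core of the fibre, had the largest mean ratio of the 6 in the scanner values. MFAP5 had a larger one in both breeds with no background subtraction and with either form of normexp correction. The ELN probe (A_73_116637) carries the transcript identifier ENSBTAT00000057593, which the study's own gene table pairs with ELN. On the LIM arrays the log2 ratio of ELN was 5.42, 2.99, 3.48 and 2.49 for replicates 1 to 4, and on the HER arrays it was 3.85, 2.14, 3.85 and 2.62. All 8 arrays were thus above 2 on this scale, and the ranges of the 2 breeds overlapped. The mean was 3.60 ± 1.28 (SD, n = 4), a 12.1-fold difference, in LIM (limma, adjusted p = 0.00116). In HER it was 3.12 ± 0.87 (SD, n = 4), or 8.66-fold (limma, adjusted p = 0.00501). LIM and HER did not differ beyond the spread, with a difference of 0.48 (95% interval −1.04 to 2.00, limma, adjusted p = 0.793).

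The size of the ELN difference rests on a dim HF channel. The signal after background subtraction and dye normalization was 470, 305, 425 and 199 in LIM against 11.4, 39.0, 38.1 and 35.5 in HF on the same arrays. On the HER arrays it was 167, 159, 108 and 137 in HER against 13.5, 36.1, 9.03 and 22.4 in HF. The beef channel was well above background on all 8 arrays and the HF channel on 5 of 8, not on LIM replicate 1, HER replicate 1 or HER replicate 3. These 3 arrays had the 3 highest ratios, and their 2 spots of the probe differed by 1.00 to 1.66 on the log2 scale, against at most 0.50 on the other arrays. Without them, a choice made after the data were seen, the mean ratio was 2.98 in LIM and 2.38 in HER (limma, adjusted p = 0.000699 and 0.00578).

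Other treatments of background lowered the ELN log2 ratio from its scanner values of 3.60 in LIM and 3.12 in HER. With no background subtraction it was 1.85 in LIM and 1.35 in HER, and with normexp and outlying backgrounds replaced it was 1.42 and 1.01, called in both. With normexp and backgrounds as measured it was 1.26 in LIM and 0.49 in HER, where the call was lost (limma, unadjusted p = 0.067, adjusted p = 0.323). The direction was higher in the beef breed each time, while the fold change has no firm size. Under the 3 normexp and unsubtracted settings LIM exceeded HER by 0.41 to 0.77 with an unadjusted p of 0.0258 to 0.0473 in limma. The adjusted p was 0.268 to 0.337. From the scanner values the difference was −0.29 with scaling between arrays and −0.13 without LIM replicate 1.

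**Figure D2:**
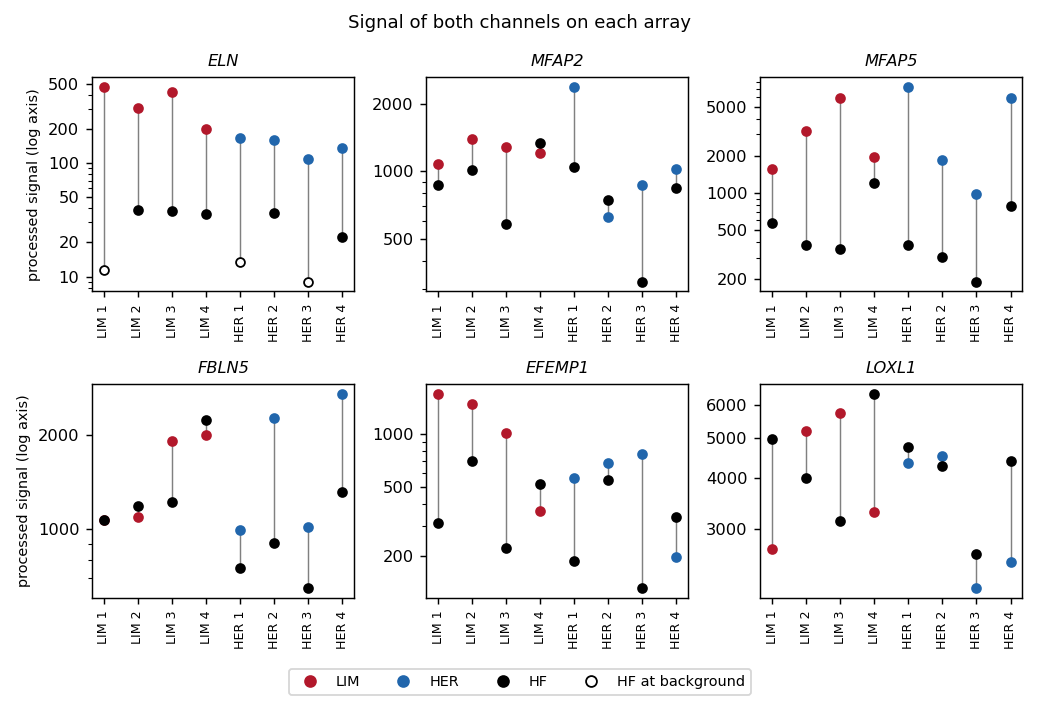
Each panel gives for 1 gene the background-subtracted and dye-normalized signal of the beef breed channel (red LIM, blue HER) and of the HF channel (black) on the 8 arrays, on a log axis of its own. A line joins channels of an array, and an open circle marks where HF was not well above background. The HF signal of ELN lay between 9.03 and 39.0 on all arrays, and the HF channels of the other 5 genes were well above background on all 8.

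Among genes of the microfibril, MFAP5 rose in both breeds, and both of its channels were well above background on all 8 arrays. MFAP5 encodes microfibril-associated glycoprotein 2, a small protein bound to fibrillin. Its log2 ratio (probe A_73_108162, NM_174386) was 1.44, 3.06, 4.08 and 0.70 on the LIM arrays and 4.26, 2.61, 2.38 and 2.92 on the HER arrays. The lowest LIM arrays, replicates 1 and 4, lay below all HER arrays, while replicates 2 and 3 lay within the HER range. The mean was 2.32 ± 1.53 (SD, n = 4), 4.99-fold, in LIM (limma, adjusted p = 0.011). In HER it was 3.04 ± 0.84 (SD, n = 4), or 8.23-fold (limma, adjusted p = 0.00742). The spots of the probe differed by at most 0.11 on an array, so the spread lay between arrays. LIM and HER did not differ beyond it, at −0.72 (95% interval −2.44 to 0.99). The methods' t-test, which uses the spread of the 4 arrays alone, did not call MFAP5 in LIM.

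MFAP2 encodes microfibril-associated glycoprotein 1, the closest relative of MFAP5 and likewise bound to fibrillin. Its log2 ratio (probe A_73_118691, NM_174388) was 0.30, 0.46, 1.15 and −0.16 in LIM and 1.19, −0.26, 1.44 and 0.28 in HER. It was above 0 on 6 of 8 arrays, 3 in each breed. The mean was 0.44 ± 0.54 (SD, n = 4) in LIM (95% interval −0.24 to 1.12) and 0.66 ± 0.79 (SD, n = 4) in HER (−0.02 to 1.34), with limma adjusted p of 0.277 and 0.132. Only the mean of LIM and HER was called, at 0.55 or 1.46-fold (limma, unadjusted p = 0.0295, adjusted p = 0.0594), and that call was lost without HER replicate 1, HER replicate 3, LIM replicate 2 or LIM replicate 3. In HER alone the unadjusted p was 0.0551, and it fell to between 0.039 and 0.0419 with normexp and outlying backgrounds replaced, no background subtraction, median centring or scaling between arrays, and to 0.0115 without HER replicate 2. It was 0.0481 without LIM replicate 3.

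The fibulins are secreted glycoproteins with repeated calcium-binding domains. FBLN5 encodes fibulin-5, which binds tropoelastin and cell-surface integrins and is needed for elastic fibres to form. Its log2 ratio (probe A_73_112415, NM_001014946) was 0.40, 1.32, 0.68 and 1.04 on the HER arrays, all above 0, and 0.01, −0.12, 0.64 and −0.16 on the LIM arrays, on both sides of 0. The mean in HER was 0.86 ± 0.40 (SD, n = 4), 1.81-fold (limma, adjusted p = 0.0147). The LIM mean was 0.09 ± 0.37 (SD, n = 4, 95% interval −0.33 to 0.52, limma, adjusted p = 0.719). The highest LIM array, replicate 3, was above the lowest HER array, replicate 1, so the groups overlapped. In the mean of LIM and HER FBLN5 was called at 0.48, 1.39-fold (limma, adjusted p = 0.0172), a call lost with normexp and backgrounds as measured, where it was 0.29.

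FBLN5 was the gene of the 6 called different between LIM and HER. The difference of ratios was −0.77 (95% interval −1.36 to −0.17, limma, unadjusted p = 0.018, adjusted p = 0.231), in a contrast in which 14.1% of all probes were called and 0.233% with the adjusted p. It was not called with the adjusted p, without HER replicate 2 (−0.61, unadjusted p = 0.051) or with normexp and backgrounds as measured (−0.36, unadjusted p = 0.18). The compared groups differ in slide and dye orientation as well as breed, and these cannot be told apart.

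EFEMP1 encodes fibulin-3, a fibulin of connective tissue. Its log2 ratio (probe A_73_120941, NM_001081717) was 2.46, 1.09, 2.19 and −0.51 in LIM and 1.56, 0.33, 2.57 and −0.77 in HER. It was thus above 0 on replicates 1 to 3 of either breed and below 0 on replicate 4 of both. The LIM mean was 1.31 ± 1.35 (SD, n = 4; limma, adjusted p = 0.119). In HER it was 0.92 ± 1.45 (SD, n = 4), and neither was called (limma, adjusted p = 0.279). The mean of LIM and HER, 1.12 or 2.17-fold, was called (limma, unadjusted p = 0.0285, adjusted p = 0.0577), and the call was lost without HER replicate 1, HER replicate 3, LIM replicate 1 or LIM replicate 3 and with normexp and backgrounds as measured. Without LIM replicate 4 the LIM mean was 1.91 and was called, and without HER replicate 4 the HER mean was 1.49 and was called. Leaving out HER replicate 3 or HER replicate 4, which changes only the estimate of the spread in LIM, also gave a call in LIM (limma, unadjusted p = 0.041 and 0.0395). So did normexp with backgrounds as measured, at 1.04 in LIM (limma, unadjusted p = 0.0248, adjusted p = 0.0652).

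LOXL1 encodes a copper-dependent enzyme of the lysyl oxidase family that oxidizes lysines of tropoelastin for crosslinking. Its log2 ratio (probe A_73_101728, NM_174383) was −0.89, 0.38, 0.87 and −0.96 in LIM and −0.13, 0.08, −0.28 and −0.82 in HER. It was above 0 on 3 of 8 arrays. The mean was −0.15 ± 0.91 (SD, n = 4) in LIM (95% interval −0.86 to 0.56) and −0.29 ± 0.39 (SD, n = 4) in HER (−0.99 to 0.42), with limma adjusted p of 0.729 and 0.515. In the mean of both, −0.22, the interval ran from −0.72 to 0.28. The upper ends of these intervals lie below the MFAP5 means. LIM replicates 1 and 4 were below 0 and replicates 2 and 3 above, and the 2 spots of the probe differed by at most 0.07 on any array.

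**Figure D3:**
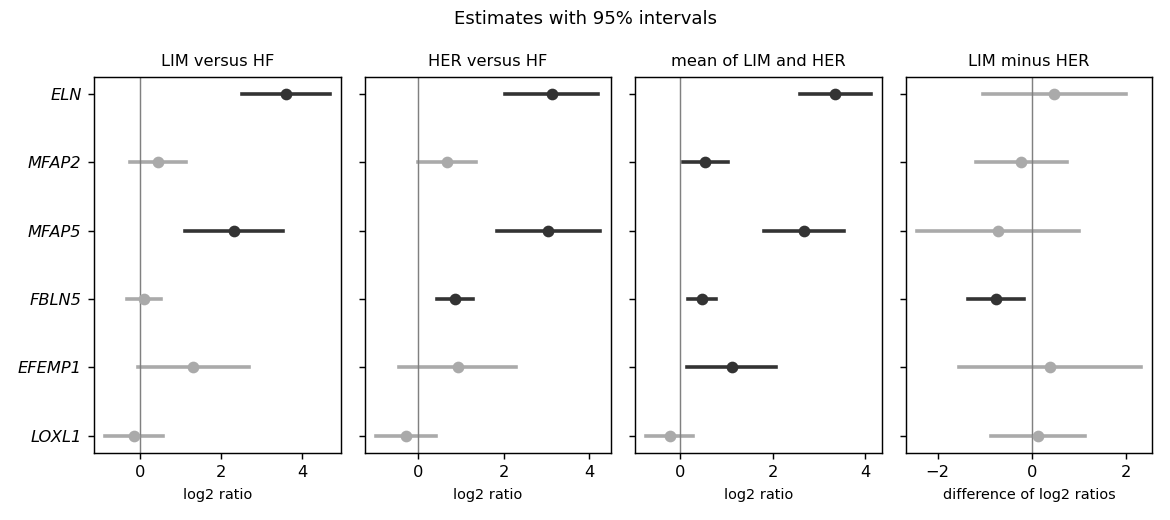
Points are limma estimates and lines their 95% intervals, on the log2 scale, for the 6 genes in LIM versus HF, HER versus HF, the mean of both and LIM minus HER, in dark where called (unadjusted p up to 0.05, fold change from 1.3). ELN and MFAP5 lie clear of 0 in the first 3 panels, LOXL1 covers 0 in all, and FBLN5 is the gene called in the last panel.

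Of the 4 LIM arrays, replicate 4 had the lowest ratio for every one of the 6 genes, while 36.4% of all tested probes were lowest there and 34.5% highest. The highest LIM value was on replicate 3 for MFAP2, MFAP5, FBLN5 and LOXL1 and on replicate 1 for ELN and EFEMP1. On the HER arrays no single array was lowest for more than 2 of the 6. Weights estimated over all probes put LIM replicate 4 lowest at 0.299, against 0.805 to 1.97 on the other 7 arrays. With these weights 4 of 6 genes were called in LIM, with EFEMP1 at 1.72 (unadjusted p = 0.00988) and MFAP2 at 0.69 (unadjusted p = 0.0469) added to ELN and MFAP5. Calls over all 17631 tested probes also went up with them, from 7340 to 8342 in LIM. Leaving LIM replicate 4 out raised the LIM mean of ELN to 3.96 and that of MFAP5 to 2.86. On the same array 9 of 11 probes for fibroblast markers were also lowest of the LIM arrays, against 3 of 6 for myoblast markers and 0 of 4 for markers of differentiating muscle cells. A low ratio can come from either channel. The HF signal of this array was the highest of the LIM arrays for MFAP2, MFAP5, FBLN5 and LOXL1. Its LIM signal was the lowest for ELN and EFEMP1. What sets this array apart was not tested.

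**Figure D4:**
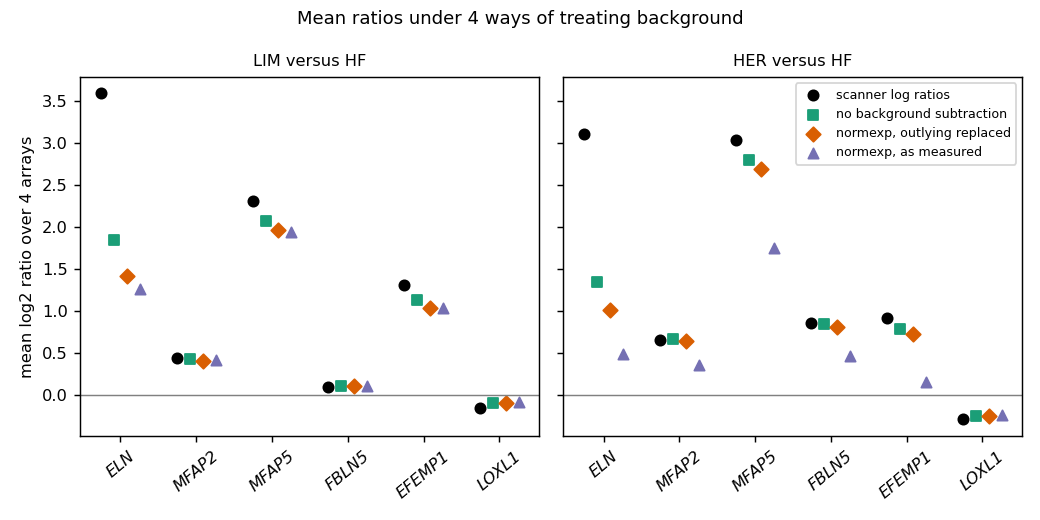
The vertical axis gives the mean log2 ratio over 4 arrays in LIM (left) and HER (right) for the 6 genes, from the log ratios of the scanner software and from 3 other treatments of background. ELN falls from 3.60 to between 1.26 and 1.85 in LIM and from 3.12 to between 0.49 and 1.35 in HER and then lies below MFAP5 in both panels, while in LIM the other 5 genes move by less.

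In HER, normexp with backgrounds as measured also lowered the other genes that had been above 0. Calls over all 17631 tested probes fell from 6142 to 1742 in HER under this setting. MFAP5 was then at 1.75 and FBLN5 at 0.47, both still called at the unadjusted p but not with the adjusted p (limma, adjusted p = 0.285 and 0.268). MFAP2 was at 0.36 and EFEMP1 at 0.16.

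RNA for markers of muscle cells and of connective tissue cells was measured in the cultures, and markers of both moved with the breeds. Beside all marker counts here and below stand the shares over all tested probes. Called higher were 20.3% in LIM and 15.0% in HER, and called in either direction 41.6% and 34.8%. Of 7 markers of satellite cells and myoblasts, 6 were measured and 4 rose in LIM and 5 in HER, with summed signals at a log2 ratio of 0.98 to 1.99 on the LIM arrays and 0.63 to 2.25 on the HER arrays. Of 6 markers of differentiating muscle cells, 4 were tested and all 4 rose in both breeds, with sums at 2.25 to 4.30 and 3.27 to 4.39. Muscle markers were thus measured in the labelled muscle cells. NCAM1, a cell adhesion molecule of myoblasts, was called in neither breed (−0.10 in LIM and 1.27 in HER), and MYOD1, a myogenic transcription factor, was not called in LIM (0.88).

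All 9 fibroblast markers were measured, of which 6 rose and 1 fell in LIM and 5 rose and 2 fell in HER, with sums at 0.68 to 3.44 and 0.85 to 2.86. COL1A1, COL1A2 and COL3A1, collagens of connective tissue, rose by 2.13 to 3.00 in LIM and 2.30 to 2.43 in HER. PDGFRA, a receptor of fibro-adipogenic cells, fell by 1.48 and 2.26 at its 2 probes in LIM and by 1.36 and 1.58 in HER. The markers thus did not move one way, and the 2 probes for DCN, a proteoglycan of connective tissue, had opposite signs in LIM (1.89 and −0.40). Of 8 smooth muscle and pericyte markers 4 were tested, of which 2 rose in LIM and 4 in HER, with sums at −0.34 to 2.14 and 0.81 to 1.49.

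Of the endothelial markers 2 were tested and 0 were called by limma in either breed, also at the unadjusted p, with sums at −0.05 to 3.31 in LIM and −2.64 to 3.47 in HER. For macrophages and leukocytes 1 of 2 rose in both (sums −0.45 to 0.92 and −0.54 to 0.77), for adipocytes 1 rose and 1 fell of 4 in each breed (−1.07 to 2.68 and −1.03 to 0.32), and for dividing cells 0 of 2 were called in LIM and 1 fell in HER (−1.14 to 0.86 and −0.93 to −0.03). A sum follows the brightest gene of its list. CKM and RGS5 were not well above background in HF on any LIM array, and neither these nor AIF1 were tested. LEP was not well above background in any channel of the HER arrays. The part of the cell types in the ELN, MFAP5 and FBLN5 results was not tested.

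Genes that act with these 6 in making and breaking down elastic fibres were taken from lists of 38, of which 15 had a probe and all 15 were tested. In LIM 7 of them rose and 2 fell, in HER 8 rose and 1 fell, and 7 rose and 1 fell in both. Over all tested probes, 20.3% were called higher in LIM, 15.0% in HER and 10.8% in both. Called in either direction were 41.6% in LIM and 34.8% in HER. The median log2 ratio of the 15 genes was 0.74 in LIM and 0.83 in HER. Every one of the 15 was lowest of the LIM arrays on replicate 4, as were 36.4% of all tested probes. Of the HER arrays, replicate 4 was lowest for 9 of the 15, as it was for 25.2% of all tested probes.

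Other fibulins and lysyl oxidases gave 3 rises of 4 in both breeds. LOXL2, a lysyl oxidase-like enzyme best known for crosslinking collagen IV, was at 2.30, 2.94, 3.02 and 1.40 on the LIM arrays and at 2.63, 2.45, 2.15 and 1.67 on the HER arrays. It was higher on all 8, by 5.33-fold in LIM and 4.67-fold in HER (limma, adjusted p = 0.000824 and 0.00304). EFEMP2, which encodes fibulin-4 and is needed to bring lysyl oxidase to tropoelastin, was higher on all 8 arrays at a mean of 1.83 in LIM and 1.85 in HER (limma, adjusted p = 0.00387 and 0.00771). LOXL4 rose by 1.25 in LIM and 1.44 in HER (limma, adjusted p = 0.0487 and 0.0401), and the LIM call was lost without LIM replicate 2 or LIM replicate 3. LOXL3 was at 0.24 and 0.06 and was not called, as LOXL1 was not.

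Both measured parts of the elastin receptor complex rose in both breeds. CTSA, a lysosomal carboxypeptidase that also protects its partner enzymes, was higher on all 8 arrays at a mean of 2.19 in LIM and 2.25 in HER (limma, adjusted p = 0.00304 and 0.00631). NEU1, the sialidase of the complex, was at 0.74 and 0.83 (limma, adjusted p = 0.0146 and 0.0156). Both also work in lysosomes apart from this complex.

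Of the enzymes that can cleave elastin, 2 of 3 rose in both. MMP2, a gelatinase, was at 3.14, 2.45, 2.55 and 0.51 on the LIM arrays and at 2.05, 1.98, 1.87 and 1.20 on the HER arrays, above 0 on all 8 (limma, adjusted p = 0.00329 and 0.0135). CTSL, a lysosomal cysteine protease, was at 1.62 in LIM and 2.46 in HER (limma, adjusted p = 0.0731 and 0.0243). The LIM call was lost without LIM replicate 1, 2 or 3. MMP9, the other gelatinase, was at −0.10 and −0.16 and was not called.

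The microfibril proteins and their regulators gave 0 rises of 4. EMILIN1, a glycoprotein at the border of elastin and microfibril, was at −1.07, −0.59, −0.69 and −1.12 on the LIM arrays and at −0.52, −0.76, −0.36 and 0.02 on the HER arrays. It was lower on 7 of 8 arrays, by a mean of −0.87 in LIM (limma, adjusted p = 0.00361) and −0.41 in HER (limma, unadjusted p = 0.0277, adjusted p = 0.0831). The HER call was lost with median centring, with normexp and outlying backgrounds replaced, with no background subtraction and without HER replicate 1, 2 or 3. ADAMTSL4, a secreted protein that binds fibrillin, fell by 0.39 in LIM (limma, adjusted p = 0.0221) and was at 0.00 in HER. MFAP3 had 2 probes, of which the dimmer was called in LIM (0.49) and the brighter was not (0.22).

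Of the latent TGF-beta binding proteins, which share domains with fibrillins, 1 of 2 rose in HER and 0 of 2 in LIM, where limma gave an unadjusted p of 0.182 and 0.263. LTBP2 was at 2.22, 2.59, 1.71 and 1.51 on the HER arrays and at 1.25, 0.90, 0.56 and −1.04 on the LIM arrays, so that every HER array was above every LIM array. This gene was singled out after its values were seen. Its difference between LIM and HER, −1.59 (95% interval −2.71 to −0.47), had an unadjusted p of 0.011 and an adjusted p of 0.197 in limma.

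**Figure D5:**
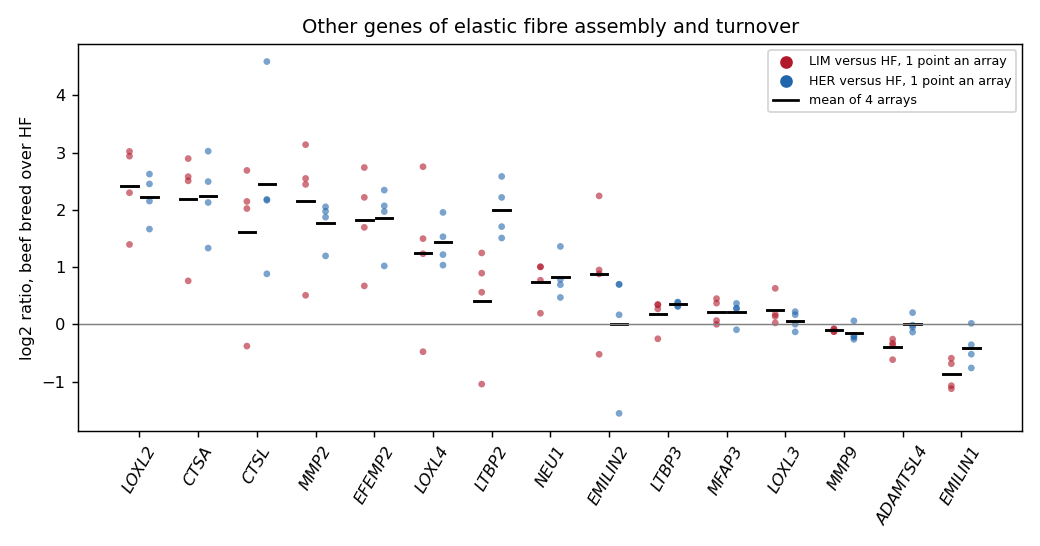
The vertical axis gives the log2 ratio of beef breed over HF for 15 genes of elastic fibre assembly and turnover, ordered by the mean of LIM and HER, with 1 point an array (red LIM, blue HER) and a bar for the mean of 4 arrays. LOXL2, CTSA, MMP2, EFEMP2 and NEU1 lie above 0 on all 8 arrays, and EMILIN1 lies below 0 on 7.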

How the data were processed

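Per the file headers, the authors scanned two-colour oligonucleotide arrays and extracted them with Feature Extraction 10.7.3.1. The deposited files give each of 44407 spots a log10 ratio of red (Cy5) over green (Cy3) after background subtraction and dye normalization, intensities of spots and local backgrounds, and other values that mark outlying or saturated spots and spots well above background. Where neither channel is above background the software sets the ratio to 0, and it replaces low signals by a floor. The table of the series repeats the log10 ratio. The study's methods called genes with a t-test.

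Ratios were converted to log2, turned to beef breed over HF and averaged over spots of a probe, without control and outlying spots (at most 0.302% of spots on an array). No spot was saturated. The share of probes well above background was 68.8% to 85.2% a channel. Probes that passed the software's background test in 4 or more of 16 channels were tested with limma 3.58.1 in R 4.3.3 (lmFit, eBayes), all 8 arrays in 1 fit with a mean for each comparison. These steps were checked on simulated data. With 4 arrays a comparison, their number limits precision, and an exact sign-flip test could not go below 0.125.

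Symbols came from a RefSeq table of assembly ARS-UCD2.0 (7794 of 20693 accessions matched, the ELN identifier through the study's gene table). The array rests on another assembly, so no coordinates are given. Named are all members and, of 5 related lists, the genes called in both breeds with one sign, while a gene with several probes was called on the brightest. LTBP2, ADAMTSL4, MFAP3, LOXL3, MMP9 and single markers were named outside this rule, after their values were seen. Markers of 8 cell types or states were counted. Members and lists were chosen with earlier results of these data known. Alternatives covered background, centring, scaling, filters, outlying spots, the series table, the methods' t-test, adjusted p, a fold change of at least 2, array weights, a replicate block and leaving out each array.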

Additional observations from a re-analysis of the deposited data

Results flagged for a closer look

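FBLN5 was called different between LIM and HER in its ratio to HF at the unadjusted p only. The value was −0.766 on the log2 scale for LIM minus HER (limma, unadjusted p = 0.018, adjusted p = 0.231). In this contrast 14.1% of all probes were called. FBLN5 was above 0 on 4 of 4 HER arrays and on 2 of 4 LIM arrays, and the groups overlapped. This contrast cannot tell breed from slide or dye. No array stood apart from the other 3 of its group by Dixon's criterion in any of 28 groups of 4 values examined, where chance alone would give about 1 in 20.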

How the results depend on the processing

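Counts of called genes depended on some choices, and so did calls over all 17631 probes tested. In LIM versus HF those were 7340, and 8342 with array weights, 5070 with the methods' t-test and 5004 with normexp and backgrounds as measured. In HER versus HF they were 6142, and 1742 with normexp and backgrounds as measured. With the other treatments of background, centring or scaling they ran from 4049 to 6936 in HER. In LIM versus HF the count of 2 of 6 became 1 with the methods' t-test (MFAP5, unadjusted p = 0.0567) and 1 with probes well above background in all channels (which drops ELN). It became 3 with normexp and backgrounds as measured (EFEMP1 added) and 4 with array weights. It ranged from 2 to 3 when each array was left out. In HER versus HF it was 3, and 2 with normexp and backgrounds as measured (ELN lost), all channels above background or a fold change of at least 2, 4 with the other treatments of background, centring or scaling (MFAP2 added), and 3 to 4 without single arrays. In the mean of both it was 5, and 3 with the adjusted p, a fold change of at least 2 or normexp with backgrounds as measured, and 3 to 5 without single arrays. For LIM minus HER it was 1, and 0 with the adjusted p or a fold change of at least 2, 2 with normexp and outlying backgrounds replaced or no background subtraction (ELN added), and 0 to 1 without single arrays. Same-numbered arrays were not treated as pairs, since the labels tie them to no shared source. The deviations of their ratios correlated at −0.236, 0.129, 0.304 and 0.54, 1 of 4 below 0.1. These ratios also carry the beef cultures, so the correlations cannot decide whether HF cells were shared. For EFEMP1 the HF signal on replicates 1 to 4 was 310, 704, 223 and 518 on the LIM arrays. On the HER arrays it was 189, 545, 131 and 337, the same order of replicates. The HF signal of MFAP5 also kept its order on both slides, and those of ELN, MFAP2, FBLN5 and LOXL1 did not. Shared HF cells were not tested. With the replicate block, EFEMP1 was called in LIM (adjusted p = 0.00694) and HER (adjusted p = 0.0229) and MFAP2 in HER (adjusted p = 0.0644), which gave 3 genes in LIM and 5 in HER. Calls over all probes were then 7710 in LIM and 6511 in HER.

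Of 500 values of single genes under alternatives, 451 kept direction and call, 19 gained a call, 14 lost it and 16 turned sign, 0 of the last called. LOXL1 became 0.27 in LIM and 0.003 in the mean with array weights. For LIM minus HER, MFAP2 became 0.055 and MFAP5 0.19 with normexp and backgrounds as measured and 0.11 and 0.13 with array weights, and ELN became −0.29 with scaling between arrays. Without single arrays, values that turned ranged from −0.49 to 0.12 for LOXL1 and −0.09 to 0.18 for FBLN5 in LIM. For LIM minus HER they ranged from −0.13 to 0.85 for ELN, −0.53 to 0.034 for MFAP2, −0.18 to 0.99 for EFEMP1 and −0.20 to 0.41 for LOXL1. The cause was not tested. Signal over background limits ELN, whose HF channel was near background.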
